A study of Mus musculus with 7 samples.

Results

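The genes described here sense, carry, store and export iron in the liver. They are Hamp, Hamp2, Tfrc, Tfr2, Trf, Fth1, Ftl1, Slc40a1, Hfe and Cp, and were chosen by function, by their symbols in the platform's probe annotation. Of these 10 genes, 8 had a probe, 1 each, among 16462 genes measured, and no probe was named for Hamp2 or Ftl1, which are not analysed here. Liver RNA came from 3 mice that lacked C3ar1 (C3ar1-/-), which encodes a receptor of complement C3a, and from 4 wild-type littermates (wt), all on a chow diet. Strain, age and sex of the mice and the deleted part of C3ar1 are not given in the sources used here. Each 2-colour array compared 1 mouse with the same pooled RNA of 6 wild-type livers. Values are log10 ratios, most likely of the mouse over the pool, so that 0 means equal signal. The sources used here state neither this direction, read from the titles' word order, nor base 10, and were the direction opposite, all signs below would be opposite. Livers carry the numbers of the labels, 2 to 4 in knockouts and 1 to 4 in wild types, and each is a separate mouse.

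Hepcidin, the peptide hormone encoded by Hamp, is made by hepatocytes and limits the entry of iron into blood by binding ferroportin (Slc40a1), the iron exporter, which is then degraded. Its transcription in hepatocytes is driven by bone morphogenetic proteins (BMP) acting through SMAD proteins, an arm that reports iron stores through transferrin and its receptors, and by interleukin 6 (IL6) acting through STAT3 in inflammation. Inside cells, iron regulatory proteins (IRP) adjust ferritin and transferrin receptor after transcription, so that RNA levels follow iron only in part.

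The probe of the targeted gene, C3ar1, gave 0.0042, 0.0337 and 0.0514 in knockout livers 2, 3 and 4, against -0.0296, -0.0318, 0.0225 and 0.0264 in wild-type livers 1 to 4. The groups overlapped, and since the probe can lie outside the deleted part it checks neither the labels nor the direction. The arrays' medians lay between -0.0008 and 0.0139, and knockout liver 2 had the widest spread over probes, with an SD of 0.0975 against 0.0466 to 0.0676 on the others. A ratio carries no level, so hepatocyte identity could not be read from the height of markers. In bulk liver, fewer cells of a type and less RNA per cell cannot be told apart.

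Of the 8 iron genes, 6 had a positive difference, knockout minus wild type, and 2 a negative difference, where 57.0% of all probes were positive, and 0 passed the test in either direction (limma, threshold 0.05 on p adjusted over 23574 probes). Over all probes 0.00424% passed. At an unadjusted p under 0.05 stood 0 of the 8 genes, where all probes gave 4.47%, and the smallest unadjusted p of the 8 was 0.0798. The groups did not overlap in 0 of the 8, against 5.26% of all probes. The median difference of the 8 genes was 0.0473, and that of all probes was 0.00555. In absolute size the medians were 0.0614 for the 8 genes and 0.0221 for all probes. The 8 genes also varied more from liver to liver, with a median SD over the 7 livers of 0.0581 against 0.0364 for all probes. None of these contrasts between the iron genes and all probes was tested. The split was 5 positive and 3 negative under scale normalization, and with either knockout liver 2 or wild-type liver 4 left out. The median of the 8 genes was 0.0254 without knockout liver 2, against 0.00202 over all genes.

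**Figure D1:**
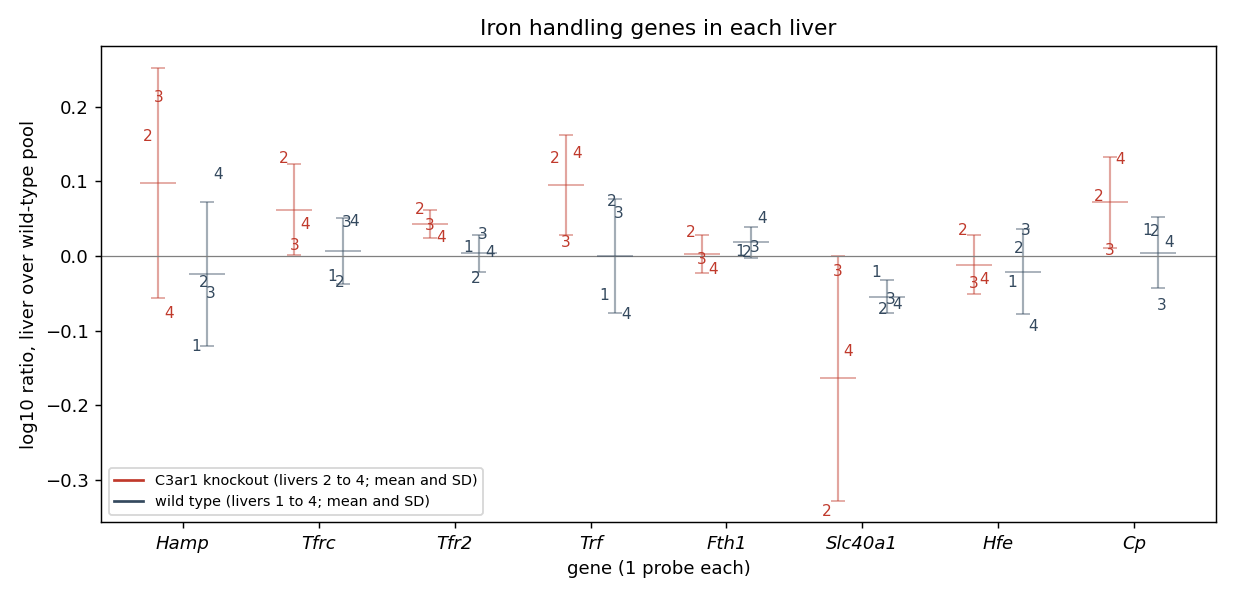
Log10 ratio of each liver over the wild-type pool (vertical axis) for the 8 iron genes with a probe, with knockout livers in red at the left and wild-type livers in dark blue at the right of each gene. Digits are the liver numbers, and the bars show mean and SD of 3 knockouts and 4 wild types. The groups overlap in all 8 genes, and knockout liver 2 stands apart at -0.343 in Slc40a1.

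Hamp, on chromosome 7, is shown with its promoter because the BMP and IL6 arms meet there. The sequences are the 250 bases before the start site of Hamp and of its paralogue Hamp2, 5′ to 3′, from RefSeq on build GRCm38.p6, both on the minus strand, at chr7:30944030-30944279 and chr7:30924182-30924431. Capitals mark the letters GGCGCC, the core of BMP-responsive elements, and TTCNNNGAA, the core bound by STAT factors. Both motifs read the same on either strand and do not overlap each other here.
Hamp: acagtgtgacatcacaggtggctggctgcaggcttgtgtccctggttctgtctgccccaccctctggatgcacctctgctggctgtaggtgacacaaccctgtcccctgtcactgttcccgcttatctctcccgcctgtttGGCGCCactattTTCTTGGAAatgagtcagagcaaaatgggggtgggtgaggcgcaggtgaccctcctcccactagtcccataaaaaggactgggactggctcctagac
Hamp2: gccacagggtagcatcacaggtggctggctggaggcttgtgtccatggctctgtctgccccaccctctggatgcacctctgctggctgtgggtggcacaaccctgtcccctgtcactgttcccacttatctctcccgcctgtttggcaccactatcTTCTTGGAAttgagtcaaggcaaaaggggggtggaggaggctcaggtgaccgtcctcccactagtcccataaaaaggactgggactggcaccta

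The upstream windows of these paralogues had 227 identical bases of 247 aligned, or 91.9%. In Hamp, GGCGCC began at base -109 and TTCNNNGAA at base -97, counted from the start site. In Hamp2 the STAT-type letters began at base -94, and GGCGCC was not among the letters of this window. Of 32851 RefSeq promoter windows of the same length, 9.59% held GGCGCC, 7.02% held TTCNNNGAA and 0.368% held both. Of the 10 iron genes, 8 had at least 1 promoter in the table, 13 promoters in all, and Hamp alone held both motifs in 1 window. A promoter of Tfrc also held GGCGCC. Since Hamp and Hamp2 are close copies, the probe of Hamp may read both transcripts, and its letters are not in the files.

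Hamp read 0.160, 0.212 and -0.0772 in knockout livers 2, 3 and 4. The wild-type livers 1 to 4 gave -0.121, -0.0356, -0.0506 and 0.109. Knockout livers 2 and 3 thus lay above all wild types, while knockout liver 4 lay below 3 of the 4. The mean was 0.0981 ± 0.154 in knockouts and -0.0245 ± 0.0964 in wild types (SD, n = 3 and 4). The difference was 0.123 ± 0.0774 (SE), or 1.33-fold higher in the knockouts (95% interval 0.876 to 2.01), and did not pass (limma, adjusted p = 0.884). It was 0.210 without knockout liver 4 and 0.0658 without knockout liver 3, with no call in either. Hamp was the most variable of the 8 genes, with an SD over the 7 livers of 0.130, above that of 97.2% of all probes. The 4 wild types alone spanned 0.230, and so the spread within wild types was larger than the difference between the group means.

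Ferroportin, encoded by Slc40a1 on chromosome 1, exports iron from macrophages, hepatocytes and gut cells. Slc40a1 read -0.343, -0.0211 and -0.128 in knockout livers 2, 3 and 4. The wild-type livers 1 to 4 gave -0.0227, -0.0723, -0.0585 and -0.0656. Knockout livers 2 and 4 lay below all wild types and liver 3 above all of them. The knockouts ranged over 0.322 and the wild types over 0.0496. The difference was -0.109 ± 0.0667 (SE), or 1.29-fold lower in the knockouts, with an interval from 0.9 to 1.84 for wild type over knockout (limma, adjusted p = 0.884). Without knockout liver 2 the difference was -0.0200, with array weights it was -0.0202, and under quantile and scale normalization it was -0.0606 and -0.0666. It was -0.181 without knockout liver 3. Knockout liver 2 had the widest spread over all probes. Markers of macrophages and Kupffer cells, which are rich in ferroportin, had positive differences in 13 of 13 measured genes, of 14 listed, with 0 called, in 11 of 13 under median centring and in only 5 of 13 without knockout liver 4. Over all genes 9336 of 16462 differences were positive. Their mean ratio ranged from -0.15 to 0.106 in knockouts and from -0.222 to -0.0620 in wild types, and was -0.0934 in knockout liver 2. The part of these cells in the values of Slc40a1 was not tested.

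Transferrin, the iron carrier of plasma made by hepatocytes and encoded by Trf on chromosome 9, had the smallest unadjusted p of the 8 genes. Trf read 0.131, 0.0182 and 0.137 in knockout livers 2, 3 and 4, against -0.0528, 0.0732, 0.0563 and -0.0782 in wild-type livers 1 to 4. Knockout livers 2 and 4 were above all wild types, and knockout liver 3 was below wild-type livers 2 and 3. The difference of 0.0956 ± 0.0473 (SE) equals 1.25-fold, with an interval from 0.967 to 1.61 (limma, adjusted p = 0.884), and was 0.0593 with array weights. Cp encodes ceruloplasmin, the copper ferroxidase of plasma that helps load iron onto transferrin. Cp read 0.0792, 0.0078 and 0.129 in knockout livers 2, 3 and 4, against 0.0346, 0.0326, -0.0668 and 0.0173 in wild-type livers 1 to 4. As in Trf, knockout livers 2 and 4 exceeded all wild types and knockout liver 3 did not. Its difference was 0.0674 ± 0.0363 (SE), or 1.17-fold (interval 0.961 to 1.42, limma, adjusted p = 0.884), and was 0.0391 without knockout liver 4 and 0.0344 with array weights. Leaving out wild-type liver 3 gave 0.0437. Both proteins belong to the secreted plasma proteins. The acute phase list, described with the IL6 arm, holds genes of plasma proteins and also the metallothionein genes Mt1 and Mt2.

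The transferrin receptors differ in role. Tfrc, on chromosome 16, takes up iron-loaded transferrin in most cells, while Tfr2, on chromosome 5, acts in hepatocytes as a sensor of it. Tfrc read 0.130, 0.0142 and 0.0421 in knockout livers 2, 3 and 4, against -0.0282, -0.0356, 0.0443 and 0.0461 in wild-type livers 1 to 4. Knockout liver 2 alone exceeded all wild types. The difference of Tfrc was 0.0554 ± 0.0352 (SE), or 1.14-fold (interval 0.941 to 1.37, limma, adjusted p = 0.884), and was 0.0215 without knockout liver 2 and 0.0211 with array weights. Tfr2 read 0.0628, 0.0406 and 0.0250 in knockout livers 2, 3 and 4, against 0.0107, -0.0301, 0.0287 and 0.0049 in wild-type livers 1 to 4. Only knockout liver 4 lay within the wild-type range, just under wild-type liver 3. The difference of Tfr2 was 0.0393 ± 0.0204 (SE), or 1.09-fold (interval 0.981 to 1.22, limma, adjusted p = 0.884). On the log10 scale the Tfr2 interval, -0.00827 to 0.0868, was the narrowest of the 8. That of Fth1, -0.0632 to 0.0327, was nearly as narrow.

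Hfe, on chromosome 13, encodes an MHC class I-like protein that binds transferrin receptors and takes part in hepcidin control. Hfe read 0.0339, -0.0372 and -0.0319 in knockout livers 2, 3 and 4, against -0.0351, 0.0104, 0.0344 and -0.0948 in wild-type livers 1 to 4. No knockout lay above all wild types or below all of them. The difference of 0.00954 ± 0.0347 (SE) was the smallest of the 8 and turned sign under scale normalization, to -5.2e-05 (limma, adjusted p = 0.960 in the deposited scaling). Fth1, on chromosome 19, encodes the heavy chain of ferritin, the store of cellular iron. Fth1 read 0.0310, -0.0045 and -0.0179 in knockout livers 2, 3 and 4, against 0.0061, 0.0051, 0.0115 and 0.0497 in wild-type livers 1 to 4. Knockout livers 3 and 4 lay below all wild types by small steps. Its difference was -0.0152 ± 0.0206 (SE), or 1.04-fold lower in the knockouts (interval 0.927 to 1.16 for wild type over knockout, limma, adjusted p = 0.895). It was -0.0293 without knockout liver 2 and -0.00485 without knockout liver 4. Leaving out wild-type liver 4 gave -0.0047, and quantile and scale normalization gave -0.0242 and -0.0231. Fth1 varied least of the 8, with an SD over the 7 livers of 0.0225, below that of most probes. Ferritin has many pseudogene copies, and whether the probe tells them apart is unknown.

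**Figure D2:**
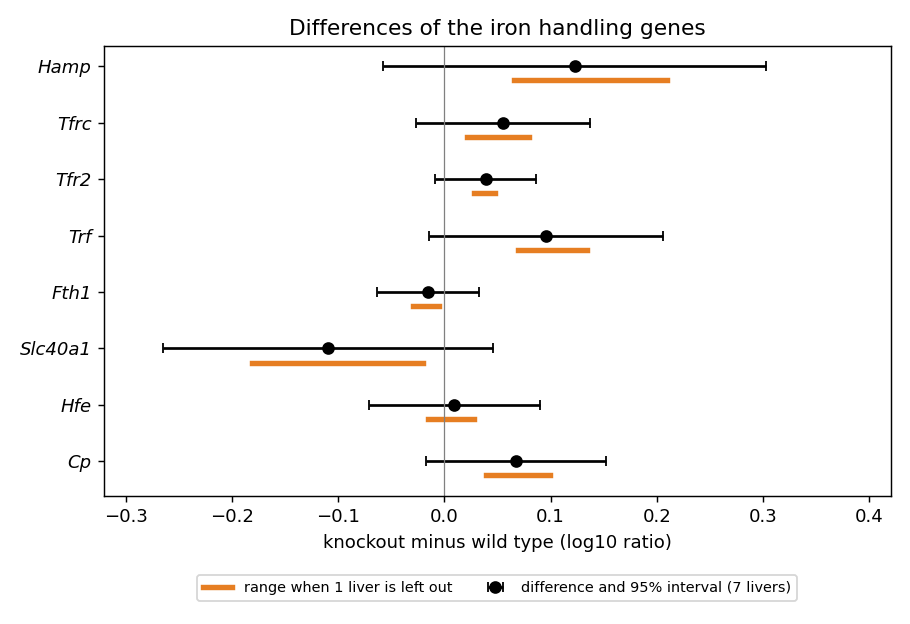
Difference in log10 ratio, knockout minus wild type, for the 8 iron genes (points, with 95% intervals of the limma fit over 7 livers as black bars). Orange bars span the values found when each liver in turn is left out. All 8 intervals include 0, and Hamp and Slc40a1 have the widest, with leave-one-out ranges of 0.0658 to 0.210 and -0.181 to -0.0200.

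The genes that control Hamp were examined as a list on the BMP and SMAD arm. Of 15 genes 13 were measured, 9 with a positive and 4 with a negative difference, where 9336 of all 16462 genes were positive, and 0 passed (limma on gene averages, where 0.00607% of 16462 genes passed). The median difference was 0.0135 in the list and 0.00543 over all genes. In the list it was 0.00878 under median centring and 0.0246 without knockout liver 3, against 0.000767 and 0.00751 over all genes. At an unadjusted p under 0.05 stood 1 of the 13, against 4.79% of all genes. The ligand genes Bmp2 and Bmp6, which sinusoidal endothelial cells supply, read between -0.0309 and 0.0211 in the knockouts and between -0.0638 and 0.0229 in the wild types. Smad1, which carries the BMP signal to the nucleus, read 0.0737, 0.0443 and 0.0875 in knockout livers 2, 3 and 4, against -0.0386, 0.0282, -0.0055 and 0.0486 in wild-type livers 1 to 4. Its difference was 0.0603 ± 0.0252 (SE, unadjusted p = 0.0454, limma, adjusted p = 0.872). Smad5, of the same role, was the 1 gene of the 13 without overlap, against 5.38% of all genes, and differed by 0.0358 ± 0.0181. Furin, a protease that cleaves the hepcidin precursor, differed by 0.0768 ± 0.0382. Bmpr1a, a BMP receptor, differed by -0.0420 ± 0.0304, and Tmprss6, a membrane protease that restrains hepcidin by cleaving the BMP coreceptor hemojuvelin, read -0.0021 to 0.0636 in knockouts and -0.0814 to 0.0559 in wild types.

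Genes that BMP signals induce along with Hamp all had positive differences, 5 of 5 measured of 6 listed. Of these, 0 were called, and their median was 0.0904. Of all 16462 genes, 9336 were positive, and the median over all genes was 0.00543. An unadjusted p under 0.05 was found in 1 of the 5, against 4.79% of all genes, and 1 was without overlap, against 5.38%. Under median centring, quantile and scale normalization the count of positive differences was also 5 of 5. It was 4 of 5 without knockout liver 4, where the median was 0.0429, against 0.00632 over all genes. Atoh8, a transcription factor gene induced with Hamp by BMP6, read 0.0833, -0.0005 and 0.108 in knockout livers 2, 3 and 4, against -0.0595, -0.0295, -0.0017 and -0.0401 in wild-type livers 1 to 4. All knockouts stood above all wild types, by a narrow margin between knockout liver 3 and wild-type liver 3. The difference was 0.0962 ± 0.0292 (SE), or 1.25-fold (interval 1.07 to 1.46, unadjusted p = 0.0119, limma, adjusted p = 0.872), and it did not pass. Id3, a helix-loop-helix regulator, read -0.163, -0.277 and 0.118 in knockout livers 2, 3 and 4, and between -0.305 and -0.208 in wild types. Its difference was 0.156 ± 0.0837, and knockout liver 4 was the only liver above 0. Id1, the most used readout of BMP signals in liver, differed by 0.0461 ± 0.0289, and Smad6, an inhibitory SMAD, by 0.0344 ± 0.0196, with wild-type liver 3 inside or above the knockout range in both. Knockout liver 4 was thus the highest for Atoh8 and Id3 and the lowest knockout for Hamp. That contrast is of 1 liver, and wild-type liver 1 was lowest of all both for Hamp, at -0.121, and for Atoh8, at -0.0595.

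The IL6 and STAT3 arm was measured in 13 of 13 genes, 11 with a positive and 2 with a negative difference, and 0 passed. Of all 16462 genes, 9336 were positive. An unadjusted p under 0.05 was found in 0 of the 13, against 4.79% of all genes. The median difference of the list was 0.0180, against 0.00543 over all genes. With livers left out it was 0.00745 to 0.0302, against 0.00202 to 0.00751 over all genes. Stat3 itself had the smallest p of the list, with a difference of 0.0435 ± 0.0294 (SE, unadjusted p = 0.179, limma, adjusted p = 0.872). Il1b, the interleukin 1 beta gene, differed by 0.0771 ± 0.0541, and Il6st, the signalling chain of the IL6 receptor, by 0.0289 ± 0.0215. Jak2, a kinase of cytokine receptors, differed by -0.0421 ± 0.0405. Socs3, which STAT3 induces and which restrains it, read -0.0144, -0.0505 and 0.0893 in knockout livers 2, 3 and 4, against 0.0151, -0.0633, -0.0213 and -0.0232 in wild-type livers 1 to 4. Acute phase genes, which IL6 drives in hepatocytes as it does Hamp, had positive differences in 11 of 13 measured genes, of 15 listed, with 0 called. Without knockout liver 4 they were positive in 8 of 13. Their mean ratio was -0.112, -0.0113 and 0.247 in knockout livers 2, 3 and 4, against 0.147, -0.0165, -0.152 and -0.0448 in wild-type livers 1 to 4. The serum amyloid gene Saa2 was highest in knockout liver 4, at 0.901, and next in wild-type liver 1, at 0.337. These were the livers with the lowest values of Hamp, at -0.0772 and -0.121. Saa2 was lowest, at -0.384, in knockout liver 2, where Hamp was 0.160. The order was not opposite throughout, since wild-type liver 3 had the third lowest Hamp, at -0.0506, and the second lowest Saa2, at -0.276, and Hamp was highest in knockout liver 3, where Saa2 was at -0.174. Saa2 was not among the genes tested for correlation with Hamp. The part of inflammation in the values of Hamp was not tested.

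**Figure D3:**
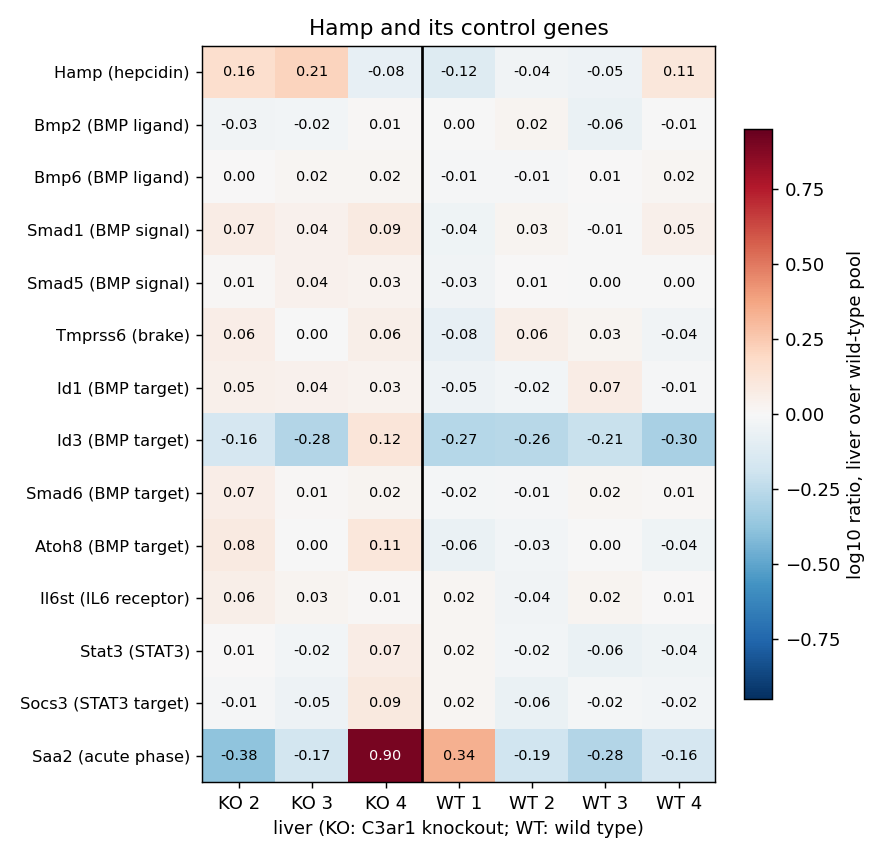
Log10 ratio over the wild-type pool for Hamp, genes of its BMP and IL6 control and Saa2 (rows), in 3 knockout (KO) and 4 wild-type (WT) livers (columns), with red above and blue below the pool. Saa2 is at 0.901 in knockout liver 4 and, among wild types, at 0.337 in liver 1, the livers with the lowest values of Hamp, -0.0772 and -0.121.

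Whether Hamp moved with its partners from mouse to mouse was asked over the 7 livers for 15 genes, with exact two-sided permutation tests adjusted over these 15. None of the 15 passed by Pearson's r (0 at an unadjusted p under 0.05, smallest adjusted p = 0.768) or by Spearman's rho (smallest adjusted p = 0.823, both exact permutation). The largest positive r was 0.525 for Smad6 (rho = 0.321), followed by 0.508 for Tfrc (rho = 0.357) and 0.505 for Tfr2 (rho = 0.429). The exact permutation p of these r values was 0.260, 0.271 and 0.251, and 0.768 for each after adjustment. The largest negative r was -0.483 for Socs3 (rho = -0.607, exact permutation p = 0.260 for r and 0.167 for rho). Slc40a1 gave -0.323 and a rho of 0.0. Without knockout livers 2 and 3, which were farthest from the median of Hamp, r over 5 livers was 0.456 for Tfrc, 0.216 for Smad6 and -0.403 for Socs3. It was 0.849 for Fth1, against 0.402 over 7 livers. It turned sign for Tfr2, at -0.209, for Id1, at -0.00589, for Atoh8, at -0.225, and for Tmprss6, at -0.0506. For those genes the relation over 7 livers rests on knockout livers 2 and 3. No correlation was computed within the 3 knockouts or the 4 wild types.

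**Figure D4:**
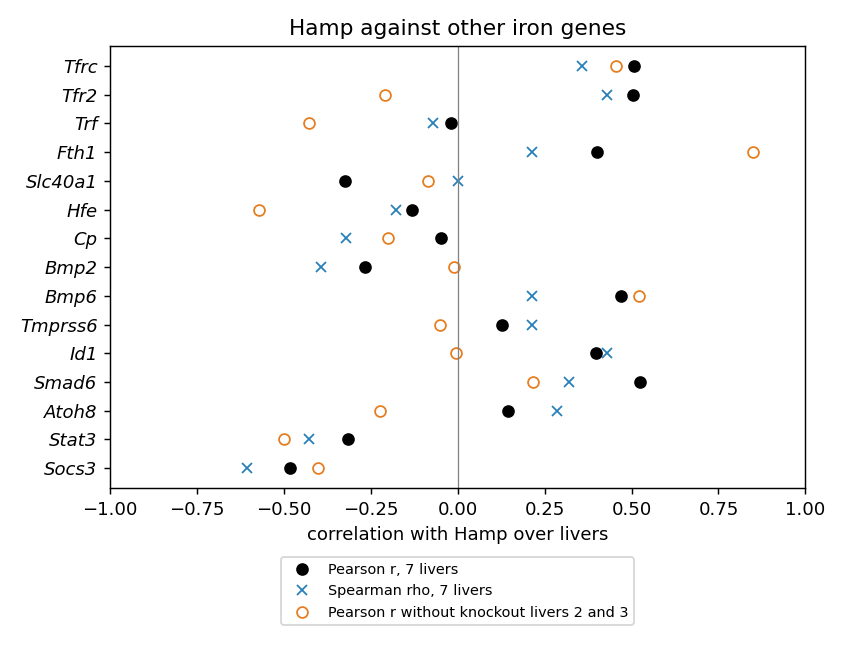
Correlation of Hamp with 15 genes over livers (horizontal axis, from -1 to 1), as Pearson's r over 7 livers (black points), Spearman's rho (blue crosses) and Pearson's r without knockout livers 2 and 3 (open orange circles). Values over 7 livers lie between -0.607 for Socs3 (rho) and 0.525 for Smad6 (r), and 4 genes change sign without those livers.

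Among 15821 genes with an established symbol, the profiles most like that of Hamp over the 7 livers were those of Rasd1 (r = 0.975), Apoa1 (0.974), Slc30a8 (0.961), Mrap2 (0.956) and Tpbg (0.954). These r values describe genes picked as the highest of all, with no test. Apoa1, the main protein of high-density lipoprotein, read 0.0487, 0.0502 and 0.0089 in knockout livers 2, 3 and 4, against -0.0119, 0.0094, 0.0018 and 0.0282 in wild-type livers 1 to 4. Its differences between livers were far smaller than those of Hamp, with knockout liver 4 among the wild types in both genes. Rasd1, a small GTPase gene induced by glucocorticoids, ranged from 0.0176 to 0.103 in knockouts and from 0.0160 to 0.0717 in wild types.

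Other routes of cellular iron were measured in 20 of 20 genes of import, reduction and mobilisation. Of these, 10 had a positive and 10 a negative difference, where 9336 of all 16462 genes were positive, and 0 passed. An unadjusted p under 0.05 was found in 1 of the 20, against 4.79% of all genes, and 1 was without overlap, against 5.38%. The median of the list was 0.000367, and -0.00516 to 0.0161 with livers left out. Slc39a14, the transporter of iron not bound to transferrin in hepatocytes, read 0.0738, 0.0879 and 0.186 in knockout livers 2, 3 and 4, against 0.0845, 0.0590, -0.0831 and -0.0513 in wild-type livers 1 to 4. Its difference was 0.114 ± 0.0485 (SE), or 1.30-fold (unadjusted p = 0.0492, limma, adjusted p = 0.872). Scara5, a ferritin receptor gene, had the widest spread, at -0.300, 0.198 and 0.288 in knockout livers 2, 3 and 4, against -0.365 to -0.0519 in wild types. The difference of Scara5 was 0.310 ± 0.142, and knockout liver 2 lay inside the wild-type range. Cybrd1, a ferric reductase, read -0.0219, -0.0067 and 0.0052 in knockouts and 0.0154 to 0.0307 in wild types, without overlap, a difference of -0.0307 ± 0.0161. Steap3, the endosomal ferric reductase, differed by 0.0413 ± 0.0224. None of these passed.

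The IRP system was measured in 4 of 5 genes, with 1 positive and 3 negative differences, where 9336 of all 16462 genes were positive. The split was 2 positive and 2 negative without knockout liver 2 or 4, and without wild-type liver 2 or 3. Of the 4 genes, 0 were called, against 0.00607% of all genes, and 0 stood at an unadjusted p under 0.05, against 4.79%. Aco1, which encodes an iron regulatory protein and cytosolic aconitase, differed by -0.000633 ± 0.0241 (SE), and Fbxl5, the iron-sensing ubiquitin ligase adaptor that degrades iron regulatory proteins, by -0.0555 ± 0.0452. The hypoxia factor genes Hif1a and Epas1 differed by -0.0767 ± 0.0756 and 0.0185 ± 0.0183. Hif1a read -0.324 in knockout liver 2, the liver that was also lowest for Slc40a1 and had the widest spread over all probes. In knockout livers 3 and 4 Hif1a read 0.0096 and -0.0413, and in wild types between -0.0901 and 0.0070.

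Iron also leaves and enters the liver as heme. Of 12 genes that scavenge hemoglobin and heme, export heme or break it down, 11 were measured. Among the 11, 7 had a positive and 4 a negative difference, where 9336 of all 16462 genes were positive, and 0 passed. An unadjusted p under 0.05 was found in 1 of the 11, against 4.79% of all genes, and 3 were without overlap, against 5.38%. Hmox2, the constitutive heme oxygenase, read 0.0328, 0.114 and 0.0337 in knockout livers 2, 3 and 4, against -0.0086, 0.0316, -0.0108 and -0.0333 in wild-type livers 1 to 4. Its difference was 0.0653 ± 0.0269 (SE), or 1.16-fold (unadjusted p = 0.0428, limma, adjusted p = 0.872). Hpx, which binds free heme in plasma, was without overlap too. Its values in knockout livers 2, 3 and 4 were -0.0461, -0.0021 and 0.189, and liver 2 lay close to the highest wild type, at -0.0512. Blvrb, a biliverdin reductase, and Abcg2, a transporter that can export heme, differed by -0.0807 ± 0.0429 and -0.0651 ± 0.0369.

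Genes of iron-sulphur cluster assembly, the mitochondrial use of iron, had negative differences in 10 of 11 measured genes, of 15 listed, and 0 passed. Negative differences made up 7126 of 16462 over all genes. An unadjusted p under 0.05 was found in 1 of the 11, against 4.79% of all genes. The median of the list was -0.0423, against 0.00543 over all genes. The median was -0.0126 without knockout liver 2 and -0.0684 without knockout liver 3, against 0.00202 and 0.00751 over all genes. Leaving out wild-type liver 1 gave -0.0260, and it was also negative in the 3 scalings tried and with each other liver left out. Fdx1, a mitochondrial ferredoxin, read -0.113, -0.0269 and -0.183 in knockout livers 2, 3 and 4, against -0.0477, 0.0464, 0.0049 and -0.0211 in wild-type livers 1 to 4. Its difference was -0.103 ± 0.0392 (SE, unadjusted p = 0.0318, limma, adjusted p = 0.872), and knockout liver 3 lay inside the wild-type range. The cochaperone gene Hscb, the glutaredoxin gene Glrx5 and Isca2 differed by -0.0906 ± 0.0397, -0.0897 ± 0.0437 and -0.0455 ± 0.0334. Averaged over the 11 genes, the ratio was -0.0549, -0.0173 and -0.0762 in knockout livers 2, 3 and 4, against 0.00574, -0.0123, 0.0107 and -0.0261 in wild-type livers 1 to 4, so knockout liver 3 lay among the wild types.

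Lists of other cells and states were read beside the iron genes, with 0 members called in each, and their positive counts stand against 9336 of 16462 over all genes. Erythroid markers, which show blood in the tissue, were positive in 3 and negative in 5 of 8 measured genes of 14 listed, with a mean ratio of -0.0423 to 0.00896 in knockouts and -0.0308 to 0.0366 in wild types. Their globin gene Hbb-b1, whose close copies may share its probes, differed by -0.141 ± 0.0489 (SE, unadjusted p = 0.0215, limma, adjusted p = 0.872). Hepatocyte markers, among them Apoa1, were positive in 9 of 10, with means of -0.0272 to 0.0866 in knockouts and -0.0633 to 0.0814 in wild types. Markers of sinusoidal endothelium, the source of BMP ligands, were positive in 9 of 11, with means of -0.0278 to 0.0419 in knockouts and -0.0657 to 0.0090 in wild types. At an unadjusted p under 0.05 stood 3 of these 11 genes, against 4.79% of all genes, and 3 were without overlap, against 5.38%. Both counts were also 3 of 10 for lymphocyte and natural killer cell markers. Each of the other marker lists had at most 1 gene by either measure. Stellate cell markers were positive in 8 of 9, lymphocyte and natural killer cell markers in 8 of 10 and neutrophil markers in 6 of 8. Without knockout liver 4, positive counts were 7 of 10 for hepatocyte, 7 of 11 for endothelial and 6 of 9 for stellate cell markers. They were then 6 of 10 for lymphocyte and natural killer, 5 of 8 for neutrophil and 4 of 8 for erythroid markers, against 9331 of 16462 over all genes. Genes with female-biased expression in mouse liver were negative in 11 of 11 measured genes of 14 listed, and in 8 of 11 without knockout liver 4. Their mean ratio was -0.0148, 0.0204 and -0.248 in knockout livers 2, 3 and 4, against 0.0983, 0.0884, -0.133 and -0.0002 in wild-type livers 1 to 4. Male-biased genes were positive in 9 of 10, and of the sex chromosome list 2 genes of 5 were measured, 1 positive and 1 negative. Knockout liver 4 was lowest both for the female-biased mean and, among knockouts, for Hamp. The match did not hold throughout, since wild-type liver 1 had the lowest Hamp of all, at -0.121, and the highest female-biased mean, at 0.0983. The part of any of these lists in the values of Hamp was not tested.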

How the data were processed

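The deposited table held log10 ratios of 7 arrays in 2 colours, each 1 mouse liver against the pool. Per the labels' protocols, total RNA was purified on spin columns with DNase, amplified and coupled to dyes, with Cy3 for channel 1 and Cy5 for channel 2. Per the design text, dyes were swapped. Background correction, normalization and log base are not given in the labels or files. Base 10 was taken, since the typical deviation of 1.05-fold to 1.10-fold per array in base 10 would be 1.01-fold to 1.03-fold in base 2. Signal over background was not analysed here. Probes were named through the platform annotation, updated to GRCm38.p6 gene symbols, and 17824 of 23574 probes had 1 symbol, 50 had several and 5700 had none listed.

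Every probe, and separately the average of each gene's probes for lists, was fitted by lmFit and eBayes of limma 3.58.1 under R 4.3.3 (two-sided, Benjamini-Hochberg adjustment, threshold 0.05). All 7 arrays entered, and the pool cancels in the difference. Exact permutation p-values followed the two-sided rule of SciPy 1.17.1. On simulated data of 23574 probes, changes of 0.1, 0.2, 0.4 and 0.8 were recovered in 14%, 68%, 100% and 100% of 50 probes each, with 8 false calls. The noise was normal and independent between probes, and the changed probes were drawn at random. The iron genes varied more than most probes (median SD 0.0581 against 0.0364 for all probes), so these rates can be too high for them.

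Alternatives were median centring, quantile and scale normalization, array weights, robust eBayes, averaged probes, a filter on variation, a replicate block and each liver left out. The iron genes and lists were chosen with earlier results of these data known. Beyond the iron genes, the text names C3ar1, the genes correlated with Hamp, up to 4 genes of smallest p per pathway list, up to 2 of largest difference per marker list, and the 5 profiles most like Hamp. Mt1 and Mt2 were named outside this rule, after their values were seen.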

Additional observations from a re-analysis of the deposited data

Results flagged for a closer look

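Of 67 genes examined for a wild-type liver far from the other 3, by the gap to its nearest neighbour relative to the range, 4 had such a liver, or 5.97%, and chance gives about 1 in 20. Fth1 read 0.0497 in wild-type liver 4, against 0.0051 to 0.0115 in the others. Cp read -0.0668 in wild-type liver 3, against 0.0173 to 0.0346, a gap at the critical value. Cd163, the hemoglobin scavenger receptor of macrophages, read -0.244 in wild-type liver 3, against 0.0506 to 0.0695. Slc30a8, a zinc transporter gene and 1 of the 5 profiles most like Hamp, read 0.0089 in wild-type liver 4, against -0.0078 to -0.0050.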

How the results depend on the processing

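The 8 iron genes were refitted under 15 alternatives, which gave 118 values, since the filter on variation removed Tfr2 and Fth1. Of these values 114 kept their direction and 0 were called, with adjusted p from 0.679 to 1.0. The 4 that turned were of Hfe, at -5.2e-05 under scale normalization, -0.00496 with array weights, and -0.0150 to 0.0281 with livers left out. Over all probes the count of calls was 1, and it was 0 under quantile normalization, scale normalization and the replicate block, 4 among the 11787 more variable probes, and 0 to 3 with livers left out. The cause was not tested. With the replicate block the difference of Hamp was 0.0905 (limma, adjusted p = 1.0). Deviations from the group means in livers of the same number had r of -0.137, -0.205 and -0.154 over probes, for numbers 2, 3 and 4. Livers of unlike number gave -0.293 to 0.329, so whether the numbers pair the mice cannot be read from these values. The turned correlations with Hamp are those of Tfr2 (-0.209), Tmprss6 (-0.0506), Id1 (-0.00589) and Atoh8 (-0.225) over 5 livers. The number of arrays, 3 against 4, limits the precision.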

Other observations

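The metallothionein genes, which bind zinc and copper, belong to the acute phase list and were chosen after their values were seen, varied widely between livers. Mt2 read 0.0283, 0.0343 and -0.408 in knockout livers 2, 3 and 4, against 0.239, 0.195, -0.559 and 0.107 in wild-type livers 1 to 4. Mt1 was lowest in the same livers, at -0.0527 in knockout liver 4 and, among wild types, at -0.147 in liver 3. Neither gene passed between the genotypes, with differences of -0.111 for Mt2 and 0.0153 for Mt1 (limma, adjusted p = 0.916 and 0.964). Hamp was at -0.0772 and -0.0506 in those livers, but its lowest value, -0.121, was in wild-type liver 1, where Mt2 was highest.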
